A study of Homo sapiens with 5 samples.

Results

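The genes described here were 39 genes of homologous recombination and of the Fanconi anaemia pathway, taken by name from a list, and all 39 were among the 26485 genes of the deposited count table. They were measured by RNA-seq in RPE1, a standard cell line derived from the human retinal pigment epithelium, of wild-type genotype. Libraries were made from polyadenylated RNA after 18 h in 0.2 µM doxorubicin (2 libraries), 0.34 µM doxorubicin (1 library) or DMSO, the solvent control (2 libraries). Doxorubicin is an anthracycline that traps topoisomerase II on DNA and causes double-strand breaks. A treatment protocol in the labels writes much higher concentrations, and the values given here are those of the sample titles and treatment labels. The question was how the transcripts of this repair pathway differed between doxorubicin-treated cells and control cells.

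Homologous recombination repairs a double-strand break by copying the sister chromatid. The break end is resected to single-stranded DNA, BRCA1, PALB2 and BRCA2 help a protein filament to form on it, the filament invades the sister, and helicases or nucleases resolve the joined molecules. The Fanconi anaemia proteins act at crosslinks between the strands, where a core complex and its ubiquitin-conjugating enzyme modify FANCD2 and FANCI, and the break made during unhooking is passed to recombination. Many of these genes are known to be transcribed mainly in S and G2 phase of the cell cycle.

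The libraries held between 23773061 and 36725345 counts. Positions are those of RefSeq on GRCh38.p14, the human build (hg38) on which the authors mapped the reads. Of 26485 genes, 14187 passed the filter on low counts, among them all 39 members. Levels are given as CPM (counts scaled to a common library size with TMM factors, so that a library sums to about 1000000), always in the order DMSO replicate 1, DMSO replicate 2, 0.2 µM replicate 1, 0.2 µM replicate 2 and 0.34 µM. Of the markers of retinal pigment epithelium, MITF lay between 29.1 and 56.7 CPM and OTX2 between 23.5 and 29.4 CPM, whereas RPE65, RLBP1, TYR, TYRP1 and TTR, which define the differentiated tissue, did not exceed 0.305 CPM in any library. Of the same list, BEST1 was at 0.992 and 0.548 CPM in DMSO and at 3.33, 1.25 and 3.91 CPM after doxorubicin, PMEL was at 0.267 and 0.196 CPM and at 0.851, 1.33 and 1.27 CPM, and neither passed the test. The 8 blood and endothelial markers summed to 1.95 and 3.64 CPM in DMSO and to 2.98, 6.61 and 4.77 CPM after doxorubicin, with HBB at 0 counts in every library. The leucocyte gene PTPRC was within these sums at 0.191 and 0.274 CPM in DMSO and at 0.967, 2.204 and 1.98 CPM after doxorubicin. The endothelial gene CDH5 instead stood apart in the replicate 2 libraries, at 2.19 CPM in DMSO and 2.87 CPM in 0.2 µM. It was at most 0.155 CPM in the other 3 libraries, whose titles carry no replicate number. The part of these markers in the results was not tested.

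In doxorubicin, transcripts of this pathway were mostly lower. Against DMSO, 36 of the 39 members had a negative log2 fold change and 3 a positive one, with a median of -1.35, where 48.9% of all genes tested were negative with a median of 0.01. With edgeR's quasi-likelihood test of the 3 doxorubicin against the 2 DMSO libraries and an adjusted p (Benjamini-Hochberg) under 0.01, 14 members (35.9%) fell and 0 rose, whereas 2.73% of all genes tested fell and 1.29% rose (4.02% in either direction). The members that fell were UBE2T, FANCA, BRCA1, BARD1, BRCA2, BRIP1, RBBP8, EXO1, XRCC2, RAD54L, RAD54B, RAD51AP1, BLM and POLQ. At an unadjusted p under 0.05, 30 members differed, as did 30.8% of all genes tested. DESeq2 called 28 members lower and 0 higher, these 14 among them, against 8.02% and 6.59% of all genes.

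The count of calls depended on each library. It was 5 without DMSO replicate 1, 0 without DMSO replicate 2, 4 without 0.2 µM replicate 1, 5 without 0.2 µM replicate 2 and 5 without the 0.34 µM library. Without either DMSO library, the other one is the whole control group and is assumed to vary like the doxorubicin libraries, which alone give the spread. The 0 without DMSO replicate 2 stands beside 28 members at an unadjusted p under 0.05 in the same edgeR fit. BRCA1, BARD1 and UBE2T were called in each of the other 4 of these fits. BRIP1 was called without any of the doxorubicin libraries in turn, FANCA without DMSO replicate 1, XRCC2 without 0.2 µM replicate 2 and POLQ without the 0.34 µM library, whereas the other 7 lost the call in every such fit. FANCG, which was not among the 14, was also called without DMSO replicate 1. The fold change of each of the 14 stayed negative in all 182 values from the alternatives. The share of all genes called in each fit that left out a library is not given here. Whether the members lost calls more than all genes did was therefore not tested.

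**Figure D1:**
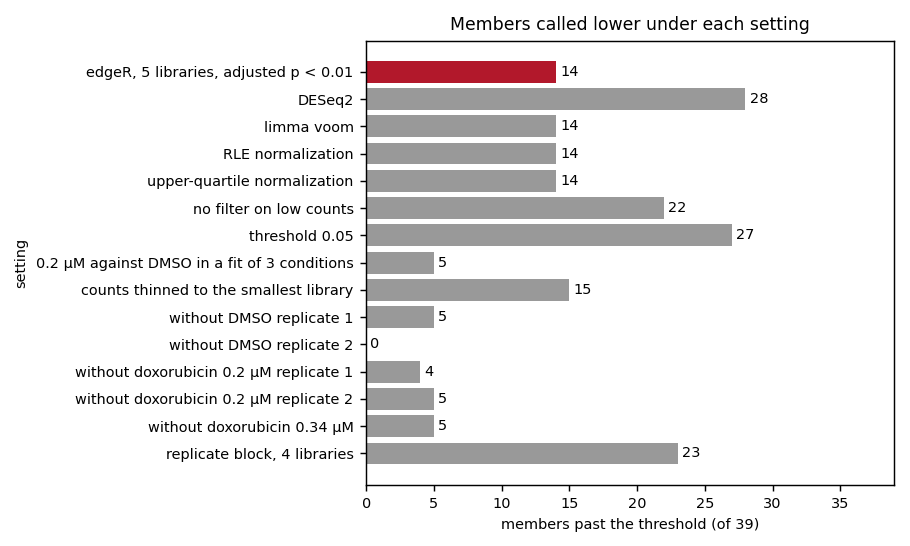
The bars give the number of members, of 39, called lower at the threshold under each setting named on the vertical axis, from 0 on the horizontal axis, with the count beside each bar. The red bar is the edgeR fit of all 5 libraries (14), DESeq2 gives 28, and the fits that leave out 1 library give between 0 (without DMSO replicate 2) and 5.

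Counting libraries rather than p-values, all 3 doxorubicin libraries lay below both DMSO libraries for 31 members, where 23.4% of all genes tested did so. The opposite held for FANCF and RAD52, where 24.3% of all genes did so (47.7% in either direction). The groups overlapped for FANCL, PALB2, RAD50, RAD51C, RAD51D and MUS81. In these bulk libraries, fewer cells expressing a gene and less RNA of it per cell cannot be told apart.

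**Figure D2:**
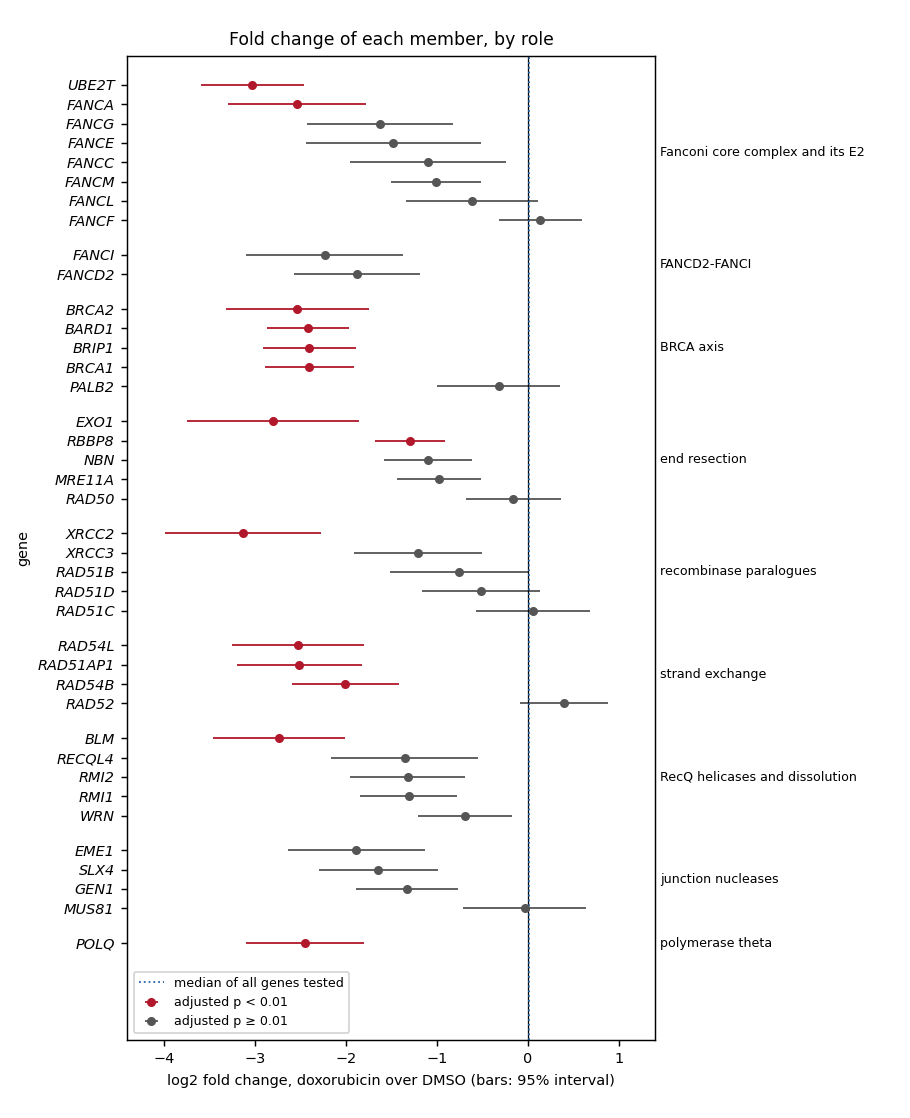
The log2 fold change of each of the 39 members, doxorubicin (3 libraries) over DMSO (2 libraries), is plotted along the horizontal axis with its 95% interval as a bar, and the members are grouped by role down the vertical axis. Red marks the 14 members with an edgeR adjusted p under 0.01, all of them on the negative side, and FANCF, RAD51C and RAD52 are the 3 members right of 0.

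The Fanconi core complex is the ubiquitin ligase of the pathway, and UBE2T is the conjugating enzyme that works with it. UBE2T fell and had the most negative fold change of these 8 genes, while 6 of the other 7 were also below DMSO on average and 1 of them, FANCA, passed the test. UBE2T (chr1:202331657-202341936) was at 25.1 and 34.2 CPM in DMSO and at 4.14, 3.78 and 3.00 CPM after doxorubicin, so that every treated library was far below either control. Its mean was 29.6 ± 6.43 CPM (SD, n = 2) against 3.64 ± 0.58 (SD, n = 3), 8.14-fold lower, with a log2 fold change of -3.03 (SE 0.24, edgeR adjusted p = 0.00112). FANCA (chr16:89737549-89816647), a scaffold subunit of the core complex, was at 17.1 and 31.4 CPM in DMSO and at 4.87, 4.41 and 3.25 CPM after doxorubicin. The controls differed by more than the treated libraries did, and the groups did not overlap. FANCA fell by 2.54 on the log2 scale (SE 0.32, edgeR adjusted p = 0.00493).

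FANCF, the adaptor that links the core subcomplexes, had nearly the same level throughout, at 8.85 and 10.1 CPM in DMSO and at 10.5, 10.6 and 10.1 CPM after doxorubicin. Its log2 fold change was 0.14, with a 95% interval from -0.32 to 0.59 (edgeR adjusted p = 0.679). The remaining core genes lay between these extremes and did not pass the test. FANCG, FANCE and FANCC, also subunits of the complex, had log2 fold changes of -1.63, -1.48 and -1.09, and their controls differed from each other by 0.88 (FANCC) to 1.31 (FANCE) on the log2 scale. FANCM, the translocase that anchors the complex on DNA, was at -1.01 with closer controls, and FANCL, the catalytic ligase subunit, at -0.62 with overlapping groups.

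FANCD2 and FANCI form the clamp that the core complex ubiquitinates. Neither passed the threshold, although both were several-fold lower in every treated library. FANCD2 (chr3:10026437-10101932) was at 35.6 and 60.7 CPM in DMSO and at 14.1, 15.4 and 9.78 CPM after doxorubicin, a log2 fold change of -1.88 (SE 0.29) whose edgeR adjusted p of 0.01005 was just above the threshold. FANCI (chr15:89243979-89317259) was at 71.1 and 124 CPM in DMSO and at 18.6, 29.7 and 14.0 CPM after doxorubicin. FANCI had a log2 fold change of -2.23 (SE 0.36, edgeR adjusted p = 0.0115). DMSO replicate 2 held more of both transcripts than replicate 1, and the groups did not overlap. DESeq2 called both lower. The gene span of FANCD2 overlaps that of FANCD2OS, and the span of FANCI overlaps that of POLG, in the annotation. No source used here gives the strand setting of the counting, and exons were not compared. Whether such pairs share reads was therefore not tested. The same holds for 26 of the 39 members, whose spans overlap that of another annotated gene, a protein-coding one in 15 cases. Among the members that fell these are FANCA (with ZNF276), BRCA2 (ZAR1L), RAD54L (LRRC41) and RAD54B (FSBP).

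Genes of the BRCA axis prepare the resected end for strand exchange. Of these 5, BRCA1, BARD1, BRCA2 and BRIP1 fell by similar amounts and PALB2 did not pass the test. BRCA1 (chr17:43044295-43170327), a ubiquitin ligase and scaffold, was at 52.2 and 70.3 CPM in DMSO and at 10.7, 13.6 and 10.6 CPM after doxorubicin. Its mean of 61.3 ± 12.8 CPM (SD, n = 2) was 5.28-fold above the 11.6 ± 1.68 CPM (SD, n = 3) of doxorubicin, a log2 fold change of -2.40 (SE 0.20, edgeR adjusted p = 0.00146). BARD1 (chr2:214725646-214809683), the obligate partner of BRCA1, was at 24.6 and 29.9 CPM in DMSO and at 4.99, 5.57 and 4.79 CPM after doxorubicin. Both partners thus had treated libraries within a narrow range and well below the controls, and BARD1 fell by 2.41 on the log2 scale (SE 0.19, edgeR adjusted p = 0.00114).

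BRCA2 (chr13:32315077-32400268), which binds single-stranded DNA and PALB2, was at 19.3 and 28.0 CPM in DMSO and at 3.60, 5.74 and 2.98 CPM after doxorubicin, a log2 fold change of -2.53 (SE 0.33, edgeR adjusted p = 0.00552). BRIP1 (chr17:61679139-61863528), the helicase also known as FANCJ, was at 44.4 and 40.8 CPM in DMSO and at 8.39, 9.56 and 6.28 CPM after doxorubicin. Its log2 fold change was -2.40 (SE 0.21, edgeR adjusted p = 0.00163), and it was among the 5 members that were not higher in DMSO replicate 2. PALB2, the protein that bridges BRCA1 and BRCA2, was at 22.7 and 27.9 CPM in DMSO and at 15.04, 27.9 and 17.9 CPM after doxorubicin. The 0.2 µM replicate 2 reached the level of the higher control, and the log2 fold change of -0.32 had a 95% interval from -0.998 to 0.354 (edgeR adjusted p = 0.491). The genes on either side of the bridge fell, and the interval for PALB2 included 0. A difference between PALB2 and these genes was not tested.

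End resection begins with the MRE11-RAD50-NBN complex and RBBP8 (CtIP) and is extended by nucleases such as EXO1. EXO1 and RBBP8 fell, and the 3 subunits of the complex did not pass the test. EXO1 (chr1:241847986-241889939) was at 19.95 and 29.7 CPM in DMSO and at 3.05, 5.49 and 2.23 CPM after doxorubicin, a log2 fold change of -2.80 (SE 0.40, edgeR adjusted p = 0.00761). The 0.2 µM replicate 2 was the highest of its treated libraries and still far below both controls. RBBP8 (chr18:22914139-23026486), the cofactor that starts resection, was at 56.6 and 68.6 CPM in DMSO and at 24.2, 27.9 and 24.5 CPM after doxorubicin. Its fall of 1.30 on the log2 scale (SE 0.16, edgeR adjusted p = 0.00500) was the smallest among the 14 members called.

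Differences between the subunits of the MRE11 complex were not tested. RAD50, its coiled-coil ATPase, was at 165 and 105 CPM in DMSO and at 111.8, 135 and 116 CPM after doxorubicin. The treated libraries lay between the controls, and the log2 fold change of -0.16 had a 95% interval from -0.68 to 0.36 (edgeR adjusted p = 0.670). The nuclease MRE11 (MRE11A in the table) was at -0.98 and NBN, the subunit that recruits ATM, at -1.10, each with all 3 treated libraries below both controls and with edgeR adjusted p of 0.0219 and 0.0171.

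The paralogue group (XRCC2, XRCC3, RAD51B, RAD51C and RAD51D) helps the filament of strand exchange to form. XRCC2 had the most negative log2 fold change of the 39 members, within its error of that of UBE2T (and in the 0.2 µM contrast UBE2T was at -2.90 and XRCC2 at -2.88), while the other 4 of this group did not pass the test. XRCC2 (chr7:152644776-152676141) was at 13.8 and 13.6 CPM in DMSO and at 1.39, 2.33 and 1.02 CPM after doxorubicin. Its mean was 13.7 ± 0.154 CPM (SD, n = 2) against 1.58 ± 0.674 (SD, n = 3), 8.74-fold lower, with a log2 fold change of -3.13 (SE 0.36, edgeR adjusted p = 0.00357). The controls were nearly equal, and the spread came from the treated libraries, in which the counts were low. RAD51C, a partner of XRCC3, had the highest log2 fold change of the group. It was at 18.5 and 21.8 CPM in DMSO and at 15.2, 27.1 and 20.6 CPM after doxorubicin, with 1 treated library below and 1 above both controls, and a log2 fold change of 0.06 with a 95% interval from -0.57 to 0.68 (edgeR adjusted p = 0.912). RAD51B, RAD51D and XRCC3 had log2 fold changes of -0.75, -0.52 and -1.21. XRCC2 and RAD51D act in the same complex with RAD51B and RAD51C, and the group thus spanned from XRCC2 at -3.13 to RAD51C at 0.06.

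Among the genes of strand exchange, RAD54L, RAD54B and RAD51AP1 fell and RAD52 did not pass the test. RAD54L (chr1:46247688-46278473), a translocase that drives pairing of the filament with the sister DNA, was at 16.7 and 26.0 CPM in DMSO and at 3.56, 4.78 and 2.84 CPM after doxorubicin. Its log2 fold change was -2.52 (SE 0.30, edgeR adjusted p = 0.00427). RAD51AP1 (chr12:4538890-4560047), which stimulates joint-molecule formation, was at 14.9 and 21.1 CPM in DMSO and at 3.29, 3.87 and 2.34 CPM after doxorubicin. Both had every treated library several-fold below the lower control, and RAD51AP1 fell by 2.51 on the log2 scale (SE 0.29, edgeR adjusted p = 0.00355). RAD54B, a homologue of RAD54L, was at 13.0 and 16.3 CPM in DMSO and at 4.14, 3.95 and 2.92 CPM after doxorubicin, a log2 fold change of -2.003 (SE 0.25, edgeR adjusted p = 0.00478).

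RAD52, a single-strand annealing protein, stood on the other side. It was at 13.4 and 10.1 CPM in DMSO and at 15.2, 14.7 and 16.6 CPM after doxorubicin, every treated library above both controls. Its log2 fold change of 0.40 was the highest of all 39 members, with a 95% interval from -0.09 to 0.88 (edgeR adjusted p = 0.238).

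RecQ helicases unwind joined DNA, and BLM with RMI1 and RMI2 dissolves double Holliday junctions. BLM fell, and the other 4 genes did not pass the test while lying below both controls in every treated library. BLM (chr15:90717346-90816166) was at 15.4 and 22.8 CPM in DMSO and at 2.59, 3.78 and 2.26 CPM after doxorubicin. It was 6.66-fold lower on average, with a log2 fold change of -2.74 (SE 0.30, edgeR adjusted p = 0.00327). WRN, the Werner syndrome helicase and nuclease, had the smallest difference of the group, at 17.9 and 23.4 CPM in DMSO and 11.9, 15.2 and 11.3 CPM after doxorubicin. The log2 fold change of WRN was -0.69 (edgeR adjusted p = 0.0817). RMI1 and RMI2, the subunits that act with BLM, were at -1.31 and -1.32, and the helicase RECQL4 was at -1.35 with controls that differed from each other by 1.08 on the log2 scale.

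Structure-selective nucleases cut the junctions that were not dissolved. None of these 4 genes passed the test in edgeR, 3 of them had an unadjusted p under 0.05, and DESeq2 called those 3 lower. EME1, the partner that MUS81 needs to cut, was at 9.12 and 11.7 CPM in DMSO and at 2.40, 3.87 and 2.204 CPM after doxorubicin, a log2 fold change of -1.89 (SE 0.32, edgeR adjusted p = 0.0127). MUS81 itself was at 37.1 and 37.4 CPM in DMSO and at 45.1, 23.2 and 40.8 CPM after doxorubicin. The controls were nearly equal, 0.2 µM replicate 2 was below them and the other treated libraries above, and the log2 fold change of -0.03 had a 95% interval from -0.71 to 0.64 (edgeR adjusted p = 0.952). SLX4, the scaffold that binds these nucleases, was at -1.64 and the Holliday junction resolvase GEN1 at -1.33.

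POLQ (chr3:121431431-121545988) encodes polymerase theta, which joins resected ends by short homologies and so acts beside recombination. It was at 27.4 and 33.8 CPM in DMSO and at 5.92, 7.03 and 3.94 CPM after doxorubicin, with no overlap. Its mean was 30.6 ± 4.53 CPM (SD, n = 2) against 5.63 ± 1.56 (SD, n = 3), and it fell by 2.45 on the log2 scale (SE 0.27, edgeR adjusted p = 0.00329).

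**Figure D3:**
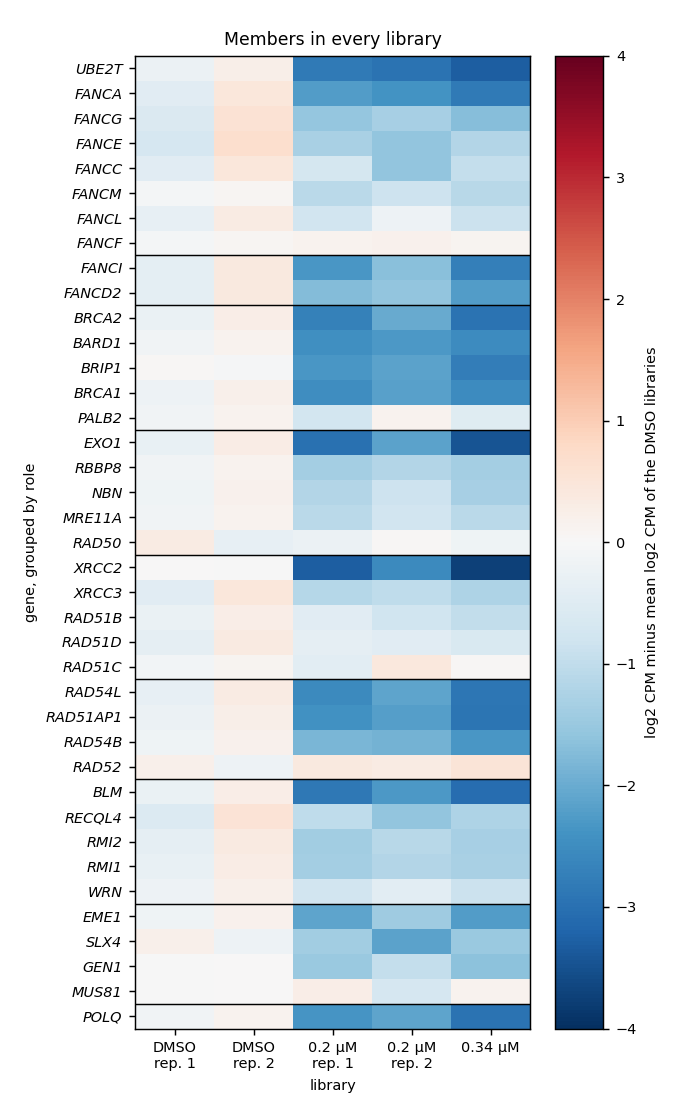
Each row is a member and each column a library, and the colour gives the log2 CPM of that library minus the mean of the 2 DMSO libraries (blue lower, red higher, scale from -4 to 4). The 3 doxorubicin columns are blue for most rows, and XRCC2, UBE2T and EXO1 are the deepest. FANCF and RAD52 are close to white or red. RAD51C and MUS81 are pale and mixed, with RAD51C on the blue side in 0.2 µM replicate 1 and MUS81 in 0.2 µM replicate 2.

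Replicates also differed from each other in these genes. In DMSO replicate 2, 34 of the 39 members were higher than in replicate 1, with a median log2 difference of 0.43, beside a median of 0.0067 over all genes tested. The other 5 were BRIP1, RAD50, XRCC2, RAD52 and SLX4. Among the 0.2 µM libraries, 28 of 39 members were higher in replicate 2, with a median of 0.23. The S phase genes moved the same way, since all 20 listed were higher in DMSO replicate 2 (median log2 difference 0.94), while 13 of 20 genes of G2 and mitosis were (median 0.17). The part of this difference in the comparison with doxorubicin was not tested beyond leaving each library out, which placed the members' median log2 fold change between -1.65 (without DMSO replicate 1) and -0.99 (without DMSO replicate 2).

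Beside these lists, the members took an intermediate position. Summed over the 39 members, the level was 1021 and 1268 CPM in DMSO and 483, 557 and 460 CPM after doxorubicin. The 20 S phase genes summed to 1514 and 2659 CPM in DMSO and to 617, 917 and 606 CPM after doxorubicin, 12 of them fell in edgeR's test, and their median log2 fold change was -2.21. Of these 20, 19 had a negative log2 fold change and 1, PCNA at 1.01, a positive one. The 20 genes of G2 and mitosis summed to 5088 and 4896 CPM and to 364, 456 and 292 CPM, and all 20 fell, with a median of -3.75. The 20 targets of p53, the transcription factor that DNA damage activates, were all higher on average, 14 of them passed the test, and their median was 1.85. The members' median of -1.35 was thus nearer to 0 than that of either cell cycle list, and its groups ran from -0.75 for the paralogue group and -1.10 for end resection to -2.26 for strand exchange and -2.40 for the BRCA axis, with the single gene POLQ at -2.45. Whether the members' difference was separable from that of the cell cycle lists was not tested. For the same treatment, the study reports a significantly larger share of cells in G2/M than in the control. The part of that shift in these levels was not tested.

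To compare levels between members, CPM was divided by the length in kb of the canonical transcript in GENCODE release 44, an annotation other than the one used for counting. In DMSO, UBE2T had the highest level per kb at 33.7 ± 7.32 (SD, n = 2), followed by FANCI at 20.6 ± 7.85, RBBP8 at 19.1 ± 2.59, RAD50 at 16.3 ± 5.15 and MUS81 at 15.8 ± 0.0746 CPM per kb. UBE2T stood above the other 4 in both DMSO libraries, RBBP8 stood above MUS81 in both, and the ranges of FANCI and RAD50 overlapped those of RBBP8 and MUS81. After doxorubicin, MUS81 at 15.4 ± 4.92 and RAD50 at 14.6 ± 1.49 CPM per kb (SD, n = 3) stood highest and did not differ beyond their spread, RAD51C followed at 8.18 ± 2.34, and UBE2T had moved from rank 1 to rank 11. XRCC2, at rank 32 in DMSO, was last after doxorubicin at 0.331 CPM per kb, with BRCA2 next to it at 0.343.

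Within the BRCA axis the order changed as well. In DMSO, levels per kb were 8.65 for BRCA1, 6.32 for PALB2, 5.21 for BRIP1, 4.98 for BARD1 and 1.98 for BRCA2. After doxorubicin, PALB2 stood first at 5.06 CPM per kb, above BRCA1 at 1.64, BRIP1 at 0.987, BARD1 at 0.934 and BRCA2 at 0.343.

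**Figure D4:**
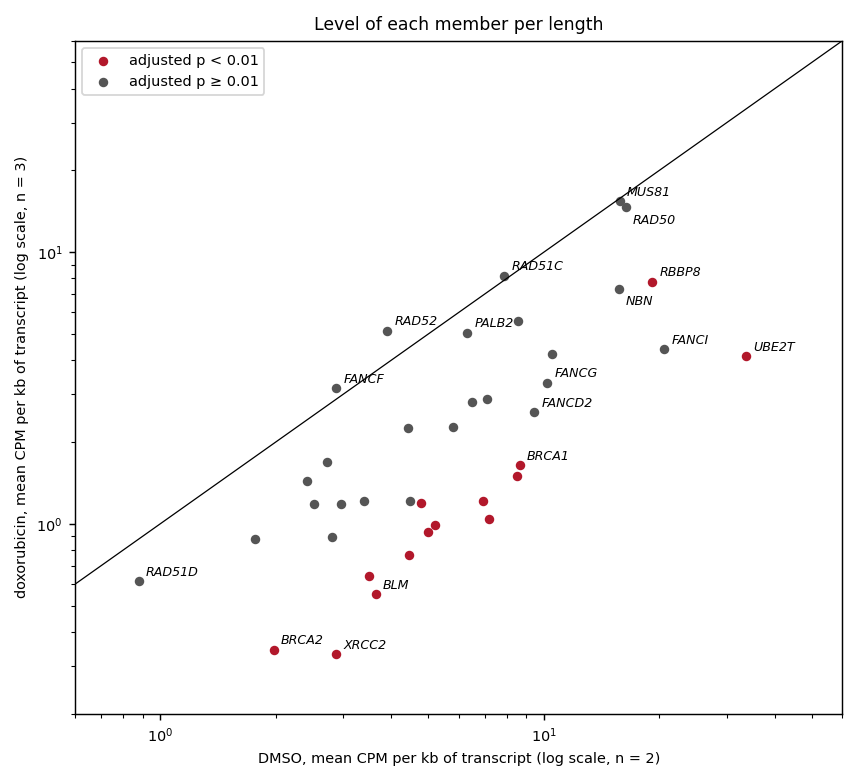
Each point is a member, with its mean CPM per kb in the 2 DMSO libraries on the horizontal axis and in the 3 doxorubicin libraries on the vertical axis, both logarithmic, and the diagonal marks equal levels. MUS81, RAD50 and RAD51C lie close to the diagonal, and UBE2T, the rightmost point at 33.7 CPM per kb in DMSO, lies far below it.

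Next, the 2 concentrations were compared, 0.34 µM (1 library) against 0.2 µM (2 libraries), in an edgeR fit of 3 conditions in which the single library was assumed to vary like the others. No member passed the test at an adjusted p under 0.01, in edgeR, DESeq2 or limma voom, and 0 had an unadjusted p under 0.05 in any of these tools. Over all genes tested, edgeR called 0% at the adjusted threshold and 0.155% at the unadjusted one. Of the 39 members, 33 had a negative log2 difference, with a median of -0.26, beside 53.1% of all genes and a median of -0.02. POLQ had the smallest p, with a log2 difference of -0.71 and a 95% interval from -1.54 to 0.12. EXO1 was at -0.93 (95% interval from -2.12 to 0.25) and FANCI at -0.78 (95% interval from -1.84 to 0.27). These intervals include 0 and also differences of more than 1.5 on the log2 scale, so a difference between the concentrations was not detectable with these libraries.

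Promoters were examined for the motifs that cell cycle genes often carry. RefSeq promoter sequences (GRCh38.p14, from 250 bases before to 50 bases after a start) were matched by symbol for 33 members with 44 annotated starts. Motifs were searched on both strands as exact letters, namely TTTCCCGC, TTTCGCGC, TTTGGCGC and TTTGCCGC (E2F type), TTTGAA and TTCGAA (CHR type, the latter being the same on both strands) and CCAAT (NF-Y type), and no matches overlapped in the promoters of the members. An E2F type match lay in 7 of the 44 promoters (15.9%), in 4.77% of the promoters of genes tested, in 14.5% of those of genes that fell and in 3.31% of all promoters in the RefSeq table. CHR type matches lay in 5 of 44 (11.4%), against 12.0% of promoters of genes tested and 32.7% of those of genes that fell. CCAAT lay in 16 of 44 (36.4%), against 34.7% and 52.5%. Among the 17 promoters of members that fell, 3 held an E2F type match, 3 a CHR type match and 8 a CCAAT, and among the 27 promoters of the other members 4, 2 and 8 did. The 8 promoters with CCAAT belonged to 7 of 13 genes, since both annotated starts of RAD54L held it. A match is a description of the letters and not evidence of binding.

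The E2F type matches are shown because this type was held by a larger share of the members' promoters than of those of all genes tested. All 7 members that held it had every treated library below both controls, as did 31 of all 39 members and 23.4% of all genes tested. Their log2 fold changes ran from -3.13 to -1.09. XRCC2, EXO1 and FANCA fell, while FANCD2, FANCC, RMI1 and GEN1 did not pass the edgeR test, beside 14 of all 39 members that fell. A link between the motif and the fall was not tested. Each line gives 30 bases, 5′ to 3′ on the strand of the gene, with the match in capitals.
XRCC2 (chr7:152676102-152676131, minus strand): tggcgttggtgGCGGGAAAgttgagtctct
EXO1 (chr1:241848197-241848226, plus strand): aaaggtcagccTTTCGCGCgctgtgtaggc
FANCA (chr16:89816801-89816830, minus strand): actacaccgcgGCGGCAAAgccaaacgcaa
FANCD2 (chr3:10026424-10026453, plus strand): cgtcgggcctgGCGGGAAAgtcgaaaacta
FANCC, upstream match (chr9:95317863-95317892, minus strand): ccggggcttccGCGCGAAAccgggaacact
FANCC, match near the start (chr9:95317737-95317766, minus strand): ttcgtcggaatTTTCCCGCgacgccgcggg
RMI1 (chr9:83980762-83980791, plus strand): ggcgcgagcgcGCGGCAAAtcgggcgggaa
GEN1 (chr2:17753859-17753888, plus strand): cagttgcggggTTTCGCGCcgccggagtct

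The 120 bases that end just before the start are given for UBE2T, BRIP1 and BLM, the 3 members with the smallest p among those that fell and hold a searched motif within these 120 bases (BRCA1, with a smaller p than BRIP1 and BLM, holds a CCAAT farther upstream of its second annotated start), with CCAAT or its complement ATTGG in capitals. All are GRCh38.p14 and read 5′ to 3′ on the strand of the gene.
UBE2T (chr1:202341937-202342056, minus strand): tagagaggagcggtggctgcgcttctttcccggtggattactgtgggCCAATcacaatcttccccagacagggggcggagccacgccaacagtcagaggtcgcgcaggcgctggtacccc
BRIP1 (chr17:61863529-61863648, minus strand): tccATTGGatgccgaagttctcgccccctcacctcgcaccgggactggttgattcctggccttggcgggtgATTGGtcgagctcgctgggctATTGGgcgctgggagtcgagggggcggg
BLM (chr15:90717226-90717345, plus strand): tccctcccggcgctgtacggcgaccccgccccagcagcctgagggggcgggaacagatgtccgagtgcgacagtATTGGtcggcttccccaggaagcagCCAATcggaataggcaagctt

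UBE2T held 1 match in this stretch, BRIP1 3 and BLM 2, and their log2 fold changes were -3.03, -2.40 and -2.74.

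A second list held 44 other genes of the same pathway and shared none with the 39. Of these, 42 passed the filter (SLX1A and SLX1B had 0 counts in every library), 29 had a negative and 13 a positive log2 fold change, and the median was -0.49. In edgeR's test 6 fell (14.3%) and 0 rose, where 2.73% of all genes tested fell and 1.29% rose. DESeq2 called 15 lower and 1 higher, against 8.02% and 6.59% of all genes. PARPBP, an inhibitor of recombination, was the lowest of the list, at 16.1 and 20.8 CPM in DMSO and at 3.09, 4.53 and 3.17 CPM after doxorubicin. Every treated library was well below both controls, and the log2 fold change was -2.36 (SE 0.26, edgeR adjusted p = 0.00316). The others were MMS22L, which acts at stalled forks, at -2.17, the helicase MCM8 at -2.05, USP1, the enzyme that removes ubiquitin from FANCD2, at -2.01, the ubiquitin ligase RFWD3 at -1.63 and RPA2, a subunit of the single-strand binding protein RPA, at -1.54 (edgeR adjusted p from 0.00166 to 0.00973 over the 6).

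RECQL5, a helicase that counteracts recombination, was the highest of this second list. It was at 14.2 and 16.2 CPM in DMSO and at 27.8, 30.3 and 28.7 CPM after doxorubicin, a log2 fold change of 0.93 with edgeR adjusted p = 0.0149. Every treated library was above both controls, yet it did not pass the threshold. The count of 6 was 5 without DMSO replicate 1, 0 without DMSO replicate 2 (18 at an unadjusted p under 0.05 in edgeR), 0 without 0.2 µM replicate 1 (17 at an unadjusted p under 0.05), 3 without 0.2 µM replicate 2 and 1 without the 0.34 µM library.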

How the data were processed

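RNA of 5 RPE1 cultures was sequenced. The authors deposited whole-number read counts per gene, made from paired-end reads mapped to hg38 with STAR and counted with featureCounts. No source used here gives tool versions or the strand setting. A second deposited table holds the authors' own DESeq2 comparison and was not used. Samples were grouped by the treatment labels, and the 3 doxorubicin libraries were pooled as in the study. The study calls its replicates biological, and p-values measure only the spread between these libraries.

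Counts were filtered (filterByExpr, minimum count 10, minimum total 15), scaled by TMM and tested with edgeR 4.0.16 (two-sided quasi-likelihood F test, Benjamini-Hochberg over 14187 genes, threshold 0.01) in R 4.3.3, after a check on simulated data. DESeq2 1.42.0 and limma 3.58.1 (voom) were alternatives, as were RLE and upper-quartile scaling, no filter, a threshold of 0.05, thinned counts, the 0.2 µM contrast, the replicate block and each library left out.

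The members and lists were chosen with earlier results of these data known, and 1 gene of the pathway is not reported here. Values per library are given for members past the threshold and for the highest and lowest by fold change of each role. Other pathway genes are named where past the threshold or at an extreme, and between concentrations the 3 members with the smallest p are named. Promoter stretches are shown for members past the threshold that hold a motif within the stretch, smallest p first, and the E2F type sites of the other members were chosen after their values were seen.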

Additional observations from a re-analysis of the deposited data

How the results depend on the processing

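Beside the 14 members and 6 other pathway genes called lower by edgeR, DESeq2 called 28 and 16 (1 of the 16 higher), the fit with no filter on low counts 22 and 10, a threshold of 0.05 called 27 and 16 (1 of the 16 higher), and the contrast of 0.2 µM against DMSO in a fit of 3 conditions 5 and 0 (17 of the latter at an unadjusted p under 0.05). Leaving out 1 library gave 0 to 5 members and 0 to 5 other pathway genes, with fewer samples in each fit, and a median log2 fold change of the members of -1.65 to -0.99. RLE scaling, upper-quartile scaling, limma voom and thinning to the smallest library gave 14 or 15 members, the 14 among them, and 5 or 6 other genes. The median, -1.35, was -1.32 with voom, -1.30 with upper-quartile scaling and -1.28 with the replicate block. The block was fitted to the 4 libraries of DMSO and 0.2 µM, paired as replicates 1 and 2. It called 23 members and 10 other genes. Only the replicate 2 titles carry a number, so the number 1 was assigned here. The remaining doxorubicin library, whose title also carries no number, was left out of the block. The labels do not say what a number shares. Over 14187 genes, the differences between replicates 1 and 2 in DMSO and in 0.2 µM correlated at 0.53 (-0.061 over the 39 members). Over all genes, 571 (4.02%) were called in edgeR and 2073 (14.6%) in DESeq2. The shares of all genes under the other settings, each library left out among them, are not given here. Whether the members or the other pathway genes moved apart from all genes under those settings was therefore not tested. Signs held for all 182 alternative values of the called members and 320 of 325 of the others, the exceptions being RAD50, RAD51C and MUS81. The cause of these differences was not tested. Between the concentrations the count was 0 in each fit, with 2 members at an unadjusted p under 0.05 in edgeR without 0.2 µM replicate 1 and 0 otherwise, including DESeq2 and voom. Thinning every library to the smallest total changed the count of members by 1, and the 2, 2 and 1 libraries of the conditions set the width of the intervals.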
